A study of Arabidopsis thaliana with 8 samples.

Results

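The genes described here are 134 of the 27416 Arabidopsis thaliana gene models measured, those at least 2-fold higher in blue-lit cry1 cry2 seedlings than in the wild type both in blue light and in darkness. They were chosen from group means of RPKM (reads scaled to gene model length and to library size), with 1 RPKM added to each mean before the ratio was taken. 144 models met both thresholds, and 10 of them, among them the abscisic acid markers RAB18 and LTI65, were left out. The cry1 cry2-BL, WT-BL and WT-D values therefore chose the genes, and what separates cry1 cry2-BL from either wild type is given as a description without a test.

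Cryptochromes are blue-light receptors. In a wild-type seedling, blue light acting through CRY1 and CRY2 slows hypocotyl growth and starts greening, and a seedling without them keeps much of the dark-grown form in blue light. Some of the genes described carry names from water deficit, cold or seed maturation, processes in which the hormone abscisic acid acts. In its pathway PYR/PYL receptors bind the hormone and inhibit PP2C phosphatases, SnRK2 kinases are then released, and bZIP factors of the ABF and ABI5 type bind promoters that hold an ACGTG core.

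The groups were cry1 cry2-BL (cryptochrome mutant in blue light), tir1 afb123-D (mutant of the auxin receptors TIR1, AFB1, AFB2 and AFB3 in darkness), WT-BL and WT-D, with 2 libraries of whole seedlings each. All seedlings were of the Col-0 ecotype and were grown with 1% sucrose, 3 days of cold, 12 h of white light and then 4 days of blue light at 15 µmol per m2 per s or of darkness. The seedlings kept in darkness had thus also seen white light. The labels give no alleles, and a dark cry1 cry2 sample and a blue-lit tir1 afb123 sample were not analysed here, so the cry1 cry2-BL and WT-D libraries differ in both genotype and light.

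The recovered totals, in units of 1e6 reads, were 23.1 and 21.7 in cry1 cry2-BL, 22.2 and 21.3 in tir1 afb123-D, 23.0 and 20.8 in WT-BL and 19.3 and 20.2 in WT-D. The targeted gene CRY2 had 0.0574 and 0.0407 RPKM in cry1 cry2-BL, against 62.3 and 63.9 RPKM in WT-BL. CRY1 RNA was still present, at 32.8 and 33.7 RPKM in cry1 cry2-BL and at 47.0 and 45.1 RPKM in WT-BL. AFB2 was at 0.996 and 0.586 RPKM in tir1 afb123-D, against 50.4 and 51.5 RPKM in WT-D. TIR1 RNA was at 59.96 and 58.8 RPKM in tir1 afb123-D and at 75.8 and 78.1 RPKM in WT-D, so RNA levels check only some of the mutated genes. Root and leaf markers were both present, as whole seedlings would give. The summed level of 15 root markers was 482 to 536 RPKM in cry1 cry2-BL, 159 to 160.3 RPKM in tir1 afb123-D, 177 to 185 RPKM in WT-BL and 532 to 545 RPKM in WT-D. The summed level of 5 green tissue markers was 3277 to 3677 RPKM in cry1 cry2-BL, 20201 to 21311 RPKM in tir1 afb123-D, 31095 to 31826 RPKM in WT-BL and 5711 to 6051 RPKM in WT-D. In these bulk samples a change in the number of cells of a type and a change in RNA per cell cannot be told apart.

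The cry1 cry2-BL libraries differed from each other over these genes. Replicate 2 was above replicate 1 for 109 of the 134 genes, or 81.3%, with a median difference of 0.17 on the log2(RPKM + 1) scale. The same held for 54.2% of all genes tested, with a median of 0.01, and for 43.3% of the 1255 genes at least 2-fold above WT-BL but under 2-fold above WT-D. The rule applied without replicate 2 chose 112 genes, 106 of them among the 134, and without replicate 1 it chose 157 genes, 129 of them among the 134. Whether replicate 2 came from seedlings in another state was not tested. How many genes of each role still met the rule without it is given with that role.

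**Figure D1:**
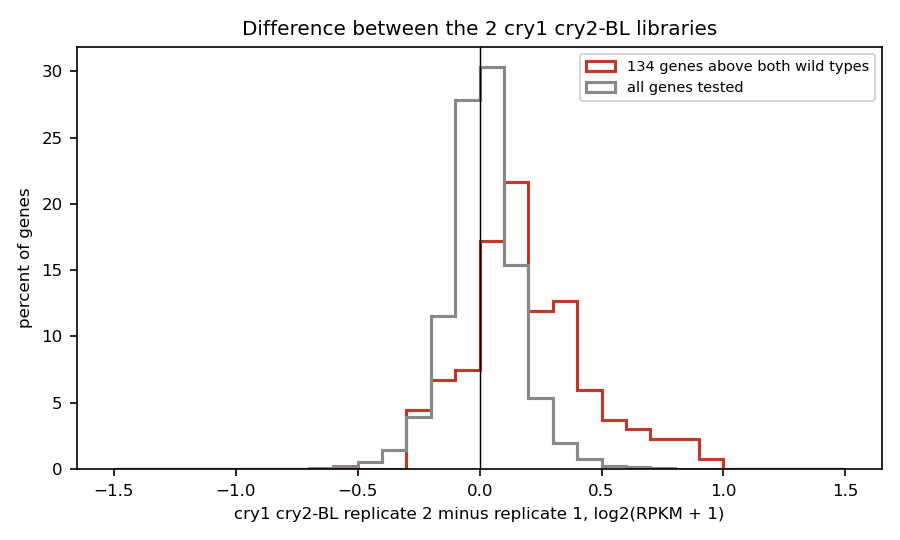
Percent of genes (y axis) by the difference between cry1 cry2-BL replicate 2 and replicate 1 (x axis, log2(RPKM + 1), in steps of 0.1), for the 134 genes in red and all genes tested in grey. The red outline lies to the right of 0, where 81.3% of the 134 genes sit, and the grey outline is near centred, with 54.2%.

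As the choice of genes all but requires, both cry1 cry2-BL libraries were above all 4 wild-type libraries in every one of the 134 genes. The mean level in cry1 cry2-BL ran between 1.38 and 1244 RPKM, with a median of 17.64 RPKM. 32 genes were under 5 RPKM there and 19 were at 100 RPKM or more. The median difference was 1.67 over WT-BL and 1.46 over WT-D on the log2(RPKM + 1) scale, beside 0.12 and 0.06 for all genes tested. 17 genes were at least 4-fold above both wild-type states. Over all genes tested, 67.9% passed the limma test described with the comparisons between cry1 cry2-BL and WT-BL, 41.6% higher and 26.3% lower, and at 2-fold or more 6.95% were higher and 7.38% lower. Between cry1 cry2-BL and WT-D 41.6% passed, 25.1% higher and 16.5% lower, and at 2-fold or more 2.92% were higher and 1.57% lower. These shares are background only, since the same contrasts chose the genes. Together the 134 genes held 1.198% and 1.31% of all RPKM in the cry1 cry2-BL libraries, 1.095% and 1.07% in tir1 afb123-D, 0.368% and 0.376% in WT-BL and 0.387% and 0.393% in WT-D. Just inside the threshold lay KIN2, AT5G04310 and VSP1, with smaller differences of 1.00, 1.01 and 1.01, and just outside it AT1G78070, AT4G33550 and AT2G04100, with 0.99, 0.98 and 0.97.

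**Figure D2:**
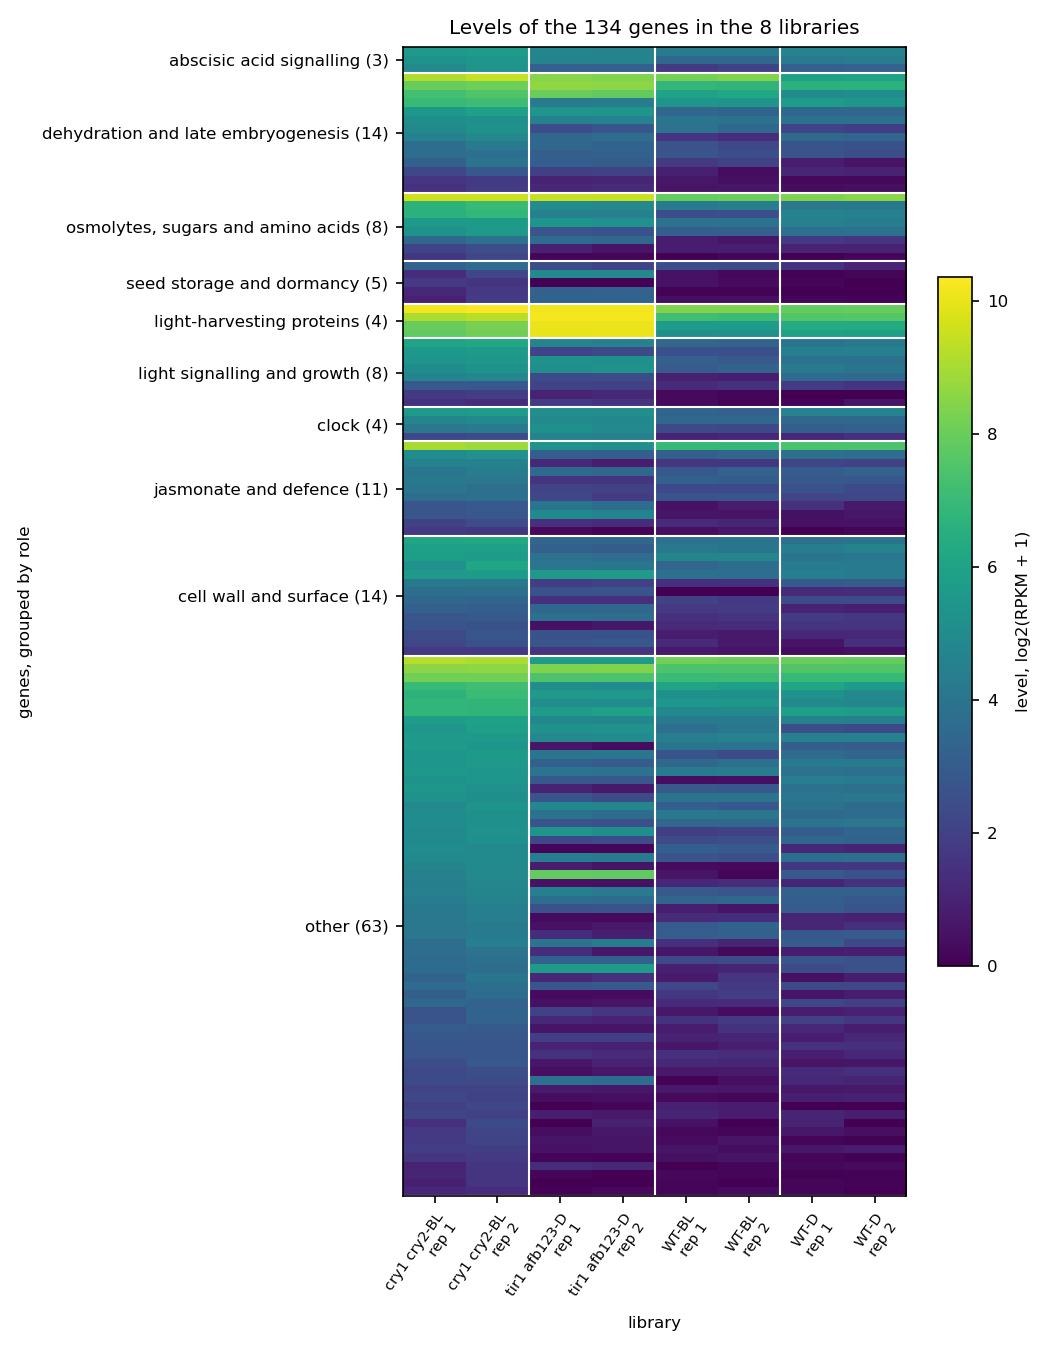
Level of each of the 134 genes (rows, grouped by role, with the number of genes in parentheses, and ordered by cry1 cry2-BL mean within a role) in each library (columns), as log2(RPKM + 1) in colour. The cry1 cry2-BL columns are brighter than the WT-BL and WT-D columns in every row, as the choice of genes requires, and the tir1 afb123-D columns are brighter than both wild types in some rows, such as the light-harvesting proteins, and darker in others.

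2 further comparisons are given: tir1 afb123-D against WT-D, where the mutant was not used by the rule but WT-D was, and WT-BL against WT-D, whose groups both entered the rule. The second is given as a description only: its counts come from the same fit, but they support nothing about these genes, and no p-value is given for it. WT-D values that are low by chance favour the choice of a gene and also raise its difference in both comparisons, which share the WT-D libraries. Tests were made with limma on log2(RPKM + 1) over 20044 genes, and a Benjamini-Hochberg adjusted p under 0.05 counts as passed. 133 of the 134 genes were tested. In tir1 afb123-D 78.9% of all genes tested passed, 27.5% higher and 51.4% lower than in WT-D, and the median of all genes was -0.24. Of the 133 genes, 71 were higher, 36 were lower and 26 did not pass, with a median of 0.38. At 2-fold or more 38 were higher and 21 lower, beside 10.5% and 15.9% of all genes tested. 113 of them reached 1 RPKM in 2 of the 4 libraries compared, and 69 of these were higher and 33 lower. Sets that met a single threshold differed in this comparison. Among the 448 genes at least 2-fold above WT-D and under 2-fold above WT-BL, 70.0% of those tested were higher and 16.8% lower, with a median of 0.87. Among the 1255 genes at least 2-fold above WT-BL and under 2-fold above WT-D, 12.4% of those tested were higher and 80.7% lower, with a median of -1.24. Of the genes the rule chose without cry1 cry2-BL replicate 2, 109 were tested, 58 were higher and 31 were lower. In WT-BL 74.4% of all genes tested passed, 34% higher and 40.4% lower than in WT-D, and of the 133 genes 30 were higher, 54 lower and 49 did not pass. 105 of them reached 1 RPKM in 2 of the 4 libraries compared, and of these 25 were higher, 53 lower and 27 did not pass. At 2-fold or more 9 were higher and 16 lower, beside 11.2% and 9.42% of all genes tested. Without replicate 2 the counts were 25 higher and 45 lower. The labels do not state whether replicates were grown separately. The p-values thus cover the spread between these libraries, which may be technical.

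**Figure D3:**
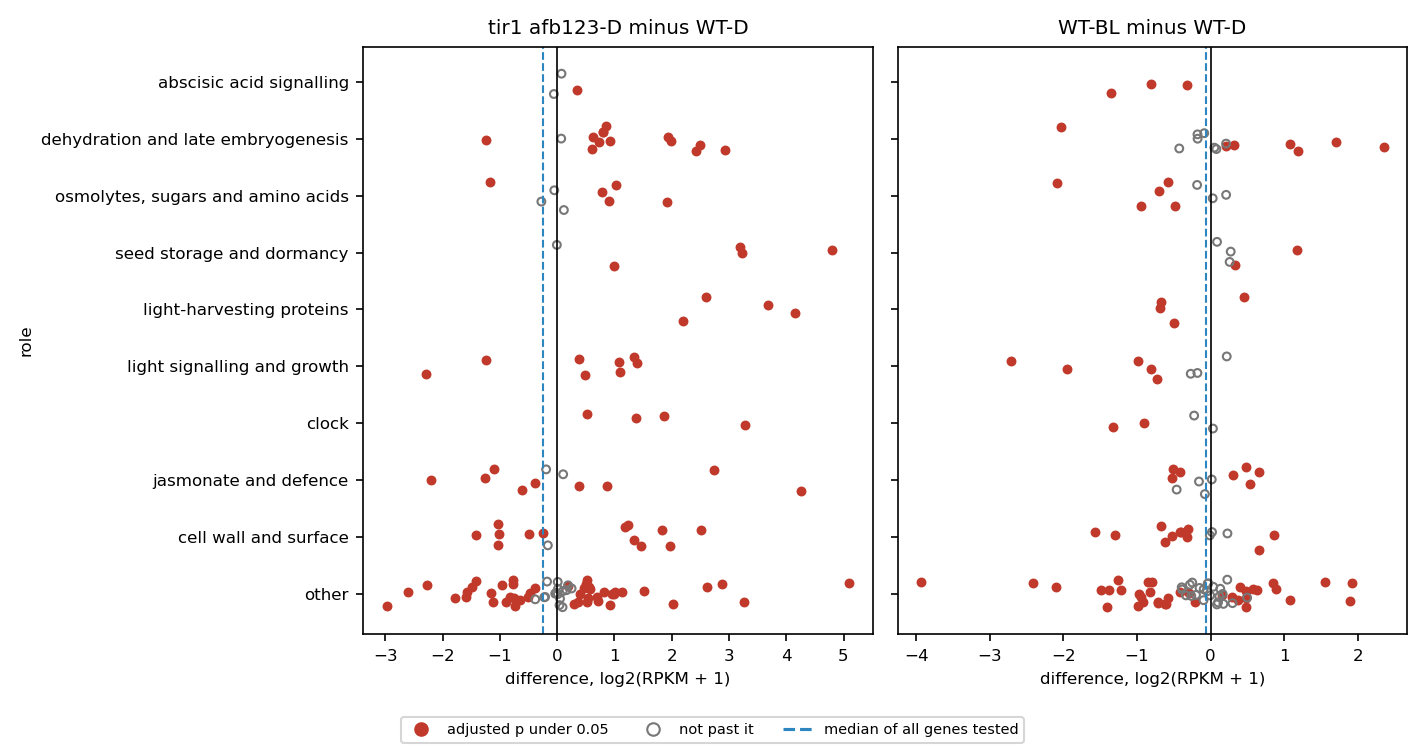
Difference of each of the 133 genes tested (points, x axis, log2(RPKM + 1)) by role (y axis) in tir1 afb123-D minus WT-D (left) and WT-BL minus WT-D (right). Red points passed the limma test at an adjusted p under 0.05, and open points did not. The dashed line is the median of all genes tested, -0.24 on the left and -0.06 on the right. On the left all 4 light-harvesting and all 4 clock genes lie above 0. The right panel is a description only, since both its groups entered the choice of genes.

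For the account that follows, 71 genes were placed in 9 roles by their names and annotation, after their values had been seen. 14 genes code for proteins of dehydration and late embryogenesis. Late embryogenesis abundant proteins and dehydrins are small hydrophilic proteins that accumulate in drying seeds and in water-stressed or cold leaves. Their mean level in cry1 cry2-BL ran between 2.17 and 629 RPKM, 2.00- to 9.58-fold over WT-BL and 2.34- to 10.3-fold over WT-D, with 1 RPKM added. All 14 were higher in cry1 cry2-BL replicate 2 than in replicate 1, and 12 of them still met the rule without replicate 2. In tir1 afb123-D 12 of the 14 were higher than in WT-D and 1 was lower. In WT-BL 6 were higher and 1 was lower than in WT-D. Over all genes tested, 27.5% were higher and 51.4% lower in tir1 afb123-D, and 34% were higher and 40.4% lower in WT-BL. The counts of roles and lists that follow are to be read beside these shares.

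The late embryogenesis gene LEA4-5 (AT5G06760) had 44.7 and 60.5 RPKM in cry1 cry2-BL, 41.1 and 40.7 RPKM in tir1 afb123-D, 9.71 and 8.999 RPKM in WT-BL and 10.3 and 9.70 RPKM in WT-D. The tir1 afb123-D values stood clear of both wild types, whose values overlapped, while those of cry1 cry2-BL did so by the choice of genes. The difference of tir1 afb123-D from WT-D was 1.93 ± 0.11 (SE, limma adjusted p = 1.83e-08). RD29A (AT5G52310), a hydrophilic protein induced by cold, drought and abscisic acid, had 155 and 186 RPKM in cry1 cry2-BL, 251 and 232 RPKM in tir1 afb123-D, 61.6 and 71.6 RPKM in WT-BL and 29.0 and 32.7 RPKM in WT-D. It was highest in the auxin receptor mutant, 2.93 ± 0.10 above WT-D (limma adjusted p = 2.2e-10), and the groups did not overlap. KIN2 (AT5G15970), a small cold-induced protein, had 556 and 703 RPKM in cry1 cry2-BL, 354 and 336 RPKM in tir1 afb123-D, 292 and 335 RPKM in WT-BL and 57.6 and 63.2 RPKM in WT-D. WT-D was the low group here, and WT-BL was 2.35 ± 0.10 above it (SE). KIN2 shares 92.1% of its aligned transcript with its neighbour KIN1, one of the genes left out, so reads may have moved between them.

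The dehydrin ERD10 (AT1G20450) had 249 and 268 RPKM in cry1 cry2-BL, 393 and 382 RPKM in tir1 afb123-D, 114 and 109.6 RPKM in WT-BL and 97.5 and 96.4 RPKM in WT-D. Its rise in tir1 afb123-D was 1.99 ± 0.05 (limma adjusted p = 6.67e-11). The late embryogenesis gene AT3G17520 had 29.4 and 39.0 RPKM in cry1 cry2-BL, 4.42 and 5.85 RPKM in tir1 afb123-D, 14.6 and 9.92 RPKM in WT-BL and 3.26 and 2.74 RPKM in WT-D. It rose by 0.61 ± 0.18 in tir1 afb123-D (limma adjusted p = 0.00743), and WT-BL was 1.71 ± 0.18 above WT-D. The seed protein gene EM1 (AT3G51810) was low throughout, at 3.71 and 6.10 RPKM in cry1 cry2-BL, 2.91 and 2.97 RPKM in tir1 afb123-D, 0.872 and 0.268 RPKM in WT-BL and 1.15 and 0.990 RPKM in WT-D. The 1 gene of the group that was lower in tir1 afb123-D was AT3G02480, with 125 and 141 RPKM in cry1 cry2-BL, 18.4 and 19.6 RPKM in tir1 afb123-D, 42.3 and 39.9 RPKM in WT-BL and 51.2 and 42.3 RPKM in WT-D.

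Promoter sequence was read to see what these genes share that their levels did not decide. The letters come from the RefSeq copy of TAIR10.1, while the reads were aligned to TAIR10, and 133 of the 134 genes had an entry. In a window of 250 bases before to 50 bases after each gene start, the core of the abscisic acid response element, ACGTG on either strand, was found in 65 of the 133 promoters, or 48.9%, beside 26.7% of all 27443 promoters of protein-coding genes. It was in 35.3% of 1248 promoters of genes at least 2-fold above WT-BL but under 2-fold above WT-D. In the 111 promoters chosen without cry1 cry2-BL replicate 2 it was in 46.8%. The palindrome CACGTG, the G-box, which contains ACGTG on both strands, was in 24.8% beside 7.68% of all promoters. CCGAC, the core bound by dehydration response factors, was in 21.8% beside 15.0%. The seed element CATGCA was in 19.5% beside 9.72%, and CACATG, a site of PIF factors, in 21.1% beside 12.9%. The W-box TTGACC was less frequent, at 9.77% beside 14.2%, and the auxin response element TGTCTC was at 14.3% beside 14.2%. TATCCA, linked to sugar starvation, was at 18.8% beside 16.1%, and the evening element AAAATATCT at 4.51% beside 2.82%. In the 1248 promoters of genes above WT-BL only, CACGTG was in 12.5%, CCGAC in 13.1%, CATGCA in 13.7% and CACATG in 18.8%. There TTGACC was in 14.3%, TGTCTC in 15.5%, TATCCA in 19.5% and AAAATATCT in 2.88%. The shares of CACATG and TATCCA were thus close to those of genes above WT-BL only. These shares are descriptions of letters, not of binding. The abscisic acid response element core was in 11 of 14 dehydration and late embryogenesis promoters and in 29 of 62 without a role. The counts were 4 of 5 for seed storage and dormancy, 3 of 4 for clock and 2 of 4 for light-harvesting genes. They were 5 of 8 for light signalling and growth and 2 of 3 for abscisic acid signalling. For cell wall and surface they were 3 of 14, for jasmonate and defence 3 of 11 and for osmolytes 3 of 8.

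**Figure D4:**
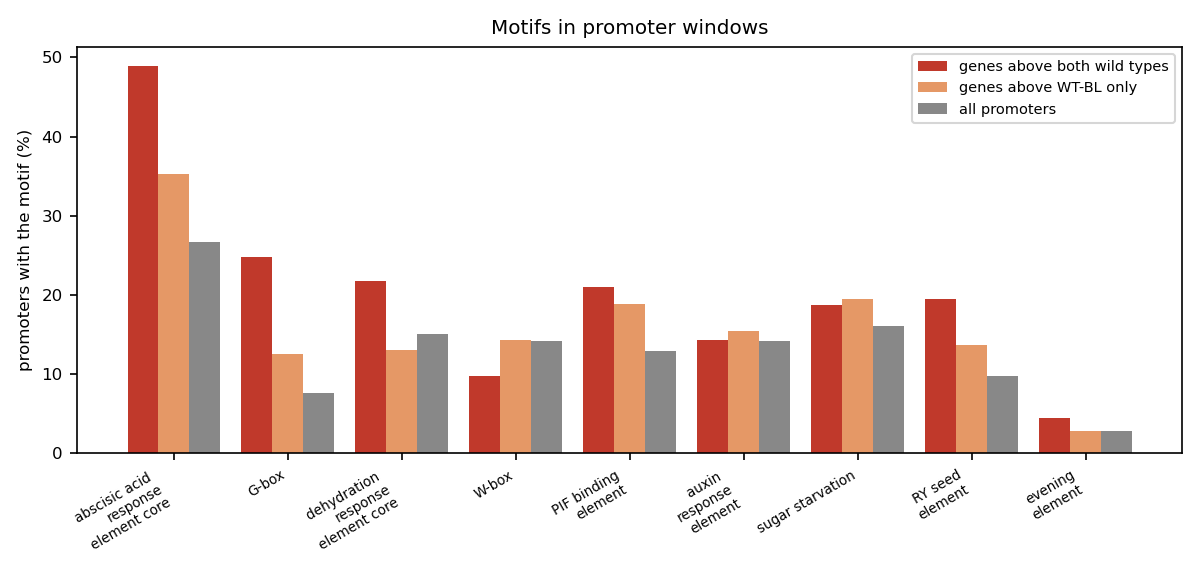
Percent of promoter windows (y axis) that hold each of 9 motifs (x axis) among the 133 genes above both wild types (red), 1248 genes above WT-BL only (orange) and all 27443 promoters (grey). The abscisic acid response element core stands at 48.9% in red and 26.7% in grey, and the auxin response element at about the same height in all 3.

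Among the 14 dehydration and late embryogenesis genes, 11 promoters held ACGTG, 9 CACGTG and 9 CCGAC. The 250 bases before the start of 6 genes are printed 5′ to 3′ on the gene's strand, with ACGTG and CCGAC of either strand in capitals. LEA4-5 (chr5:2090431-2090680, minus strand) and AT3G17520 (chr3:6000448-6000697, minus strand) are shown for their G-boxes. RD29A (chr5:21240467-21240716, plus strand) is shown for 3 copies of CCGAC, with no ACGTG in this stretch. LHCA4 (chr3:17495034-17495283, minus strand) and PIF4 (chr2:17885851-17886100, plus strand), from the light-harvesting and growth groups, are shown because they hold the same core. HSFA6A (chr5:17626488-17626737, minus strand), the gene that stands furthest above both wild types, holds neither motif in this stretch.
LEA4-5: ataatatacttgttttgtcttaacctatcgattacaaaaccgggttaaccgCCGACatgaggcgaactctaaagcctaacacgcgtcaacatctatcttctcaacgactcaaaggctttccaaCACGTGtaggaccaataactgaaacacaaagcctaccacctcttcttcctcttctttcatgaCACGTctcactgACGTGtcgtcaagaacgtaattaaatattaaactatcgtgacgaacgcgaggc
AT3G17520: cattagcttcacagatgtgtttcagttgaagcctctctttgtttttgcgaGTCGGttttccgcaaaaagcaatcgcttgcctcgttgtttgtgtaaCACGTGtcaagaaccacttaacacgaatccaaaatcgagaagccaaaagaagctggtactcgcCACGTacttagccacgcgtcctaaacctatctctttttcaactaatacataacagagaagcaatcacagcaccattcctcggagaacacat
RD29A: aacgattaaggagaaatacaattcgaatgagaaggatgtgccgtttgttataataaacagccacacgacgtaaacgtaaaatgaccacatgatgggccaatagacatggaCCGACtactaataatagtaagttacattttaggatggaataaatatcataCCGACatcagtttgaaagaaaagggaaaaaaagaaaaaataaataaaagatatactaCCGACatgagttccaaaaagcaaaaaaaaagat
LHCA4: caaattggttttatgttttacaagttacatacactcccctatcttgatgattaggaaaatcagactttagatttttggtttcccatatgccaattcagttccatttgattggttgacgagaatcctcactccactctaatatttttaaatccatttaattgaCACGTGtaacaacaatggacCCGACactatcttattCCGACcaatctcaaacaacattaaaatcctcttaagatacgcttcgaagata
PIF4: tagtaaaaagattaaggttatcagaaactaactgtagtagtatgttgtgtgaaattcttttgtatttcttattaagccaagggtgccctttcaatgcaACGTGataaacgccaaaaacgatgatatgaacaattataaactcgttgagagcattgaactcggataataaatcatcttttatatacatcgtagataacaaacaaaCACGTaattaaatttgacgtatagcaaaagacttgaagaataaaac
HSFA6A: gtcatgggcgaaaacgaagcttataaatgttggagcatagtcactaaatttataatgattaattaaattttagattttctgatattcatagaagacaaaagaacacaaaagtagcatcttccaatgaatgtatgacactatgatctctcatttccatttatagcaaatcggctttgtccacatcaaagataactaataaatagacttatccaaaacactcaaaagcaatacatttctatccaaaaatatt
Counted back from the gene start at position -1, the first base of the G-box lies at -127 in LEA4-5, at -154 in AT3G17520 and at -88 in LHCA4. Over all 133 promoters ACGTG was found most often between -100 and -51, in 19.5% beside 7.27% of all promoters.

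Among the genes placed under abscisic acid signalling, HAB1 and AFP1 are brakes of the pathway. HAB1 (AT1G72770), a PP2C phosphatase that holds SnRK2 kinases inactive, had 45.7 and 52.0 RPKM in cry1 cry2-BL, 25.9 and 23.9 RPKM in tir1 afb123-D, 18.6 and 18.9 RPKM in WT-BL and 23.1 and 24.1 RPKM in WT-D. AFP1 (AT1G69260), a protein that binds ABI5 and dampens the response, had 39.1 and 42.7 RPKM in cry1 cry2-BL, 24.0 and 23.9 RPKM in tir1 afb123-D, 10.2 and 10.1 RPKM in WT-BL and 17.5 and 19.8 RPKM in WT-D. AT3G05640 is annotated only as a PP2C family protein, which does not by itself place it in this pathway. It had 28.7 and 40.6 RPKM in cry1 cry2-BL, 7.93 and 8.12 RPKM in tir1 afb123-D, 2.43 and 2.97 RPKM in WT-BL and 8.17 and 8.62 RPKM in WT-D. AFP1 rose in tir1 afb123-D, by 0.35 ± 0.07 (limma adjusted p = 0.00088), while HAB1 and AT3G05640 did not pass. 2 of these 3 genes met the rule without replicate 2. All 3 were lower in WT-BL than in WT-D, by between -0.32 for HAB1 and -1.35 for AT3G05640.

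Of a list of 36 abscisic acid signalling and response genes, 7 belonged to the 134 and the other 29 did not meet the rule. The 134 make up 0.489% of all gene models, and those tested make up 0.664% of genes tested. The list was drawn up with earlier results of these data known, so the share of it among the 134 is a description only. It does not hold the 10 genes left out, which include RAB18, LTI65 and the phosphatases HAI1 and HAI2. The list's median difference of cry1 cry2-BL was 1.06 over WT-BL and 0.53 over WT-D, beside 0.12 and 0.06 for all genes tested. ABF3, a bZIP factor of the response, averaged 128.5 RPKM in cry1 cry2-BL, 92.1 RPKM in tir1 afb123-D, 24.1 RPKM in WT-BL and 99.0 RPKM in WT-D, so that it was above WT-BL but near WT-D. The phosphatase gene ABI1 averaged 111 RPKM in cry1 cry2-BL, 63.8 RPKM in tir1 afb123-D, 30.6 RPKM in WT-BL and 90.3 RPKM in WT-D. COR15A, a cold-regulated chloroplast protein, averaged 4.80 RPKM in cry1 cry2-BL, 5.54 RPKM in tir1 afb123-D, 32.3 RPKM in WT-BL and 0.0327 RPKM in WT-D, below WT-BL and above WT-D. Its cry1 cry2-BL libraries were at 1.72 and 7.87 RPKM. Of 34 list genes tested, 18 were higher and 11 lower in tir1 afb123-D than in WT-D, and 7 were higher and 22 lower in WT-BL than in WT-D. Over all genes tested the shares were 27.5% higher and 51.4% lower in tir1 afb123-D, and 34% and 40.4% in WT-BL. None of 22 listed genes of abscisic acid synthesis, breakdown and perception was among the 134, and none of 14 heat shock, 20 senescence and sugar starvation, 10 low oxygen or 12 salicylate and camalexin genes. With 0.489% of all gene models among the 134, a count of 0 in lists of this size is what the background share gives, and nothing is read from it.

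The genes furthest above both wild types had varied functions. HSFA6A (AT5G43840), a heat shock transcription factor, had 20.9 and 26.8 RPKM in cry1 cry2-BL, 0.425 and 0.386 RPKM in tir1 afb123-D, 1.23 and 1.47 RPKM in WT-BL and 1.098 and 1.75 RPKM in WT-D. It was high in cry1 cry2-BL only among the 4 groups, and it fell by 0.77 ± 0.15 in tir1 afb123-D (limma adjusted p = 0.00055). AT5G39520, a protein of the DUF1997 family, had 25.1 and 30.2 RPKM in cry1 cry2-BL, 0.757 and 0.491 RPKM in tir1 afb123-D, 0.228 and 0.202 RPKM in WT-BL and 2.23 and 2.12 RPKM in WT-D. AT4G21650, a subtilase, had 16.5 and 20.7 RPKM in cry1 cry2-BL, 0.241 and 0.192 RPKM in tir1 afb123-D, 1.39 and 1.56 RPKM in WT-BL and 1.104 and 0.932 RPKM in WT-D. These 3 genes were lower in tir1 afb123-D than in WT-D, on few reads in both groups. HSFA6A had 8 and 7 reads in tir1 afb123-D and 18 and 30 in WT-D. AT5G39520 had 16 and 10 against 41 and 41, and AT4G21650 had 13 and 10 against 52 and 46. AT1G02470, annotated as a polyketide cyclase or lipid transport protein, had 12.0 and 14.4 RPKM in cry1 cry2-BL, 1.53 and 0.603 RPKM in tir1 afb123-D, 0.560 and 0.169 RPKM in WT-BL and 0.727 and 0.809 RPKM in WT-D, and did not pass in tir1 afb123-D. AT1G30250, of unknown function, had 8.75 and 15.3 RPKM in the cry1 cry2-BL libraries, 1.29 and 1.79 RPKM in tir1 afb123-D, 0.663 and 1.93 RPKM in WT-BL and 0.395 and 0.753 RPKM in WT-D. TSPO (AT2G47770), a membrane protein induced by abscisic acid, had 42.6 and 49.1 RPKM in cry1 cry2-BL, 15.2 and 15.6 RPKM in tir1 afb123-D, 5.46 and 4.104 RPKM in WT-BL and 11.4 and 9.52 RPKM in WT-D. AT5G42290, annotated as a transcription activator-like protein, averaged 7.28 ± 2.48 RPKM in cry1 cry2-BL and 0.865 ± 0.108 RPKM in WT-D (SD, n = 2).

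**Figure D5:**
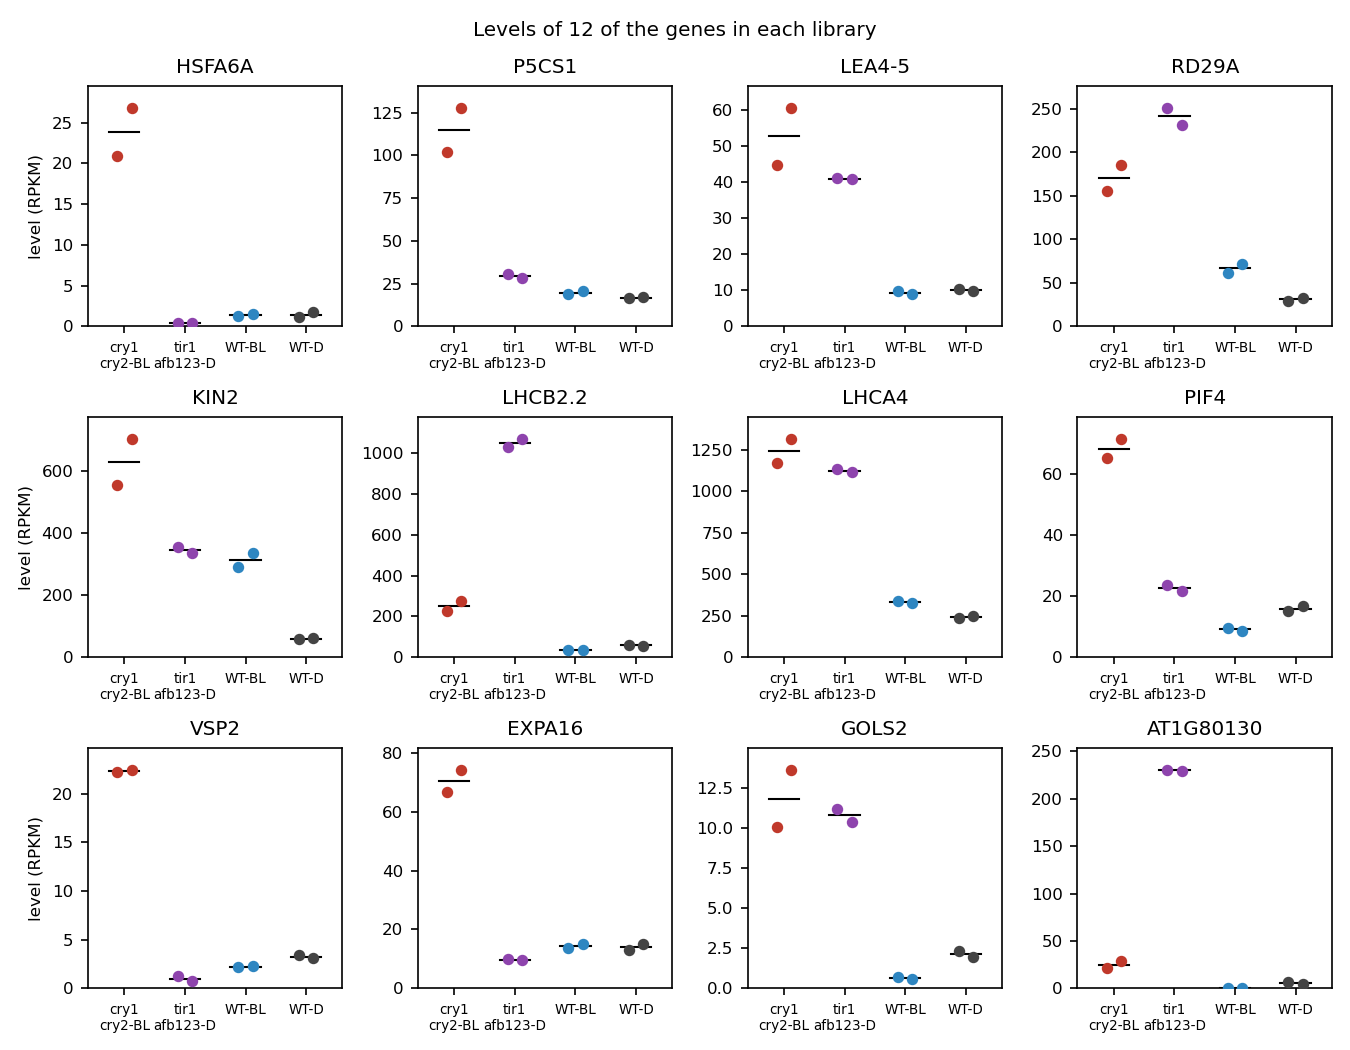
Level in RPKM (y axes, each from 0) of 12 of the genes in each library (points) with the group mean (line), by group (x axes). HSFA6A, VSP2 and EXPA16 are high in cry1 cry2-BL alone, LEA4-5, LHCA4 and GOLS2 are high in cry1 cry2-BL and tir1 afb123-D, and RD29A, LHCB2.2 and AT1G80130 are highest in tir1 afb123-D. The cry1 cry2-BL points lie above both wild types by the choice of genes.

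8 genes were placed under osmolytes, sugars and amino acids. P5CS1 (AT2G39800), which catalyses the first step of proline synthesis, had 102 and 128 RPKM in cry1 cry2-BL, 30.7 and 28.5 RPKM in tir1 afb123-D, 18.6 and 20.5 RPKM in WT-BL and 16.5 and 17.1 RPKM in WT-D. Its rise in tir1 afb123-D was 0.78 ± 0.09 (limma adjusted p = 1.17e-05). GOLS2 (AT1G56600), a galactinol synthase that feeds raffinose synthesis, had 10.1 and 13.6 RPKM in cry1 cry2-BL, 11.2 and 10.4 RPKM in tir1 afb123-D, 0.717 and 0.552 RPKM in WT-BL and 2.301 and 1.98 RPKM in WT-D. The values of the mutants overlapped, and tir1 afb123-D was 1.91 ± 0.13 above WT-D (limma adjusted p = 9.49e-08). ADC2 (AT4G34710), an arginine decarboxylase of polyamine synthesis, was abundant everywhere, with 788 and 775 RPKM in cry1 cry2-BL, 707 and 722 RPKM in tir1 afb123-D, 238 and 259 RPKM in WT-BL and 329 and 370.4 RPKM in WT-D. AT2G41190, an amino acid transporter family protein, had 98.1 and 116 RPKM in cry1 cry2-BL, 22.2 and 22.1 RPKM in tir1 afb123-D, 4.48 and 4.78 RPKM in WT-BL and 24.2 and 21.95 RPKM in WT-D. The difference of WT-BL from WT-D was -2.09 ± 0.08, and the gene did not pass in tir1 afb123-D. The sucrose synthase SUS3 averaged 42.8 ± 6.58 RPKM in cry1 cry2-BL, 5.32 ± 0.337 RPKM in tir1 afb123-D, 7.74 ± 0.263 RPKM in WT-BL and 13.2 ± 0.568 RPKM in WT-D (SD, n = 2 each). The aminotransferase TAT7 averaged 48.2 ± 2.13 RPKM in cry1 cry2-BL and 20.9 ± 1.01 RPKM in WT-D (SD, n = 2 each). Of the 8 genes 4 were higher and 1, SUS3, was lower in tir1 afb123-D, and 5 were lower in WT-BL. All 8 met the rule without replicate 2. From a list of 14 osmolyte genes only P5CS1, GOLS2 and SUS3 were among the 134. P5CS2, the sister gene of P5CS1, averaged 96.7 RPKM in cry1 cry2-BL, 118.7 RPKM in tir1 afb123-D, 45.5 RPKM in WT-BL and 120.4 RPKM in WT-D.

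5 genes belong to seed storage and dormancy, with means between 1.71 and 10.1 RPKM in cry1 cry2-BL. The storage globulin CRC (AT4G28520) had 1.497 and 3.65 RPKM in cry1 cry2-BL, 29.1 and 28.2 RPKM in tir1 afb123-D, 0.437 and 0.161 RPKM in WT-BL and 0.0289 and 0.110 RPKM in WT-D. The storage albumin SESA1 (AT4G27140) had 0.924 and 2.49 RPKM in cry1 cry2-BL, 9.25 and 9.07 RPKM in tir1 afb123-D, 0.310 and 0.342 RPKM in WT-BL and 0.147 and 0.0703 RPKM in WT-D. SESA2 (AT4G27150), its neighbour in the genome, had 1.296 and 2.32 RPKM in cry1 cry2-BL, 8.17 and 8.55 RPKM in tir1 afb123-D and 0.0592 and 0.0655 RPKM in WT-BL, and was listed at 0 in both WT-D libraries. These 3 genes were highest in tir1 afb123-D, and in cry1 cry2-BL replicate 2 had at least 1.5 times the level of replicate 1. PER1, a peroxiredoxin of seeds, had 8.65 and 11.5 RPKM in cry1 cry2-BL, 4.303 and 3.28 RPKM in tir1 afb123-D, 4.59 and 4.199 RPKM in WT-BL and 1.84 and 1.00 RPKM in WT-D. DOG1, which sets seed dormancy, had 2.32 and 2.04 RPKM in cry1 cry2-BL and under 0.5 RPKM in every other library. 4 of the 5 were higher in tir1 afb123-D than in WT-D. 2 of the 5 met the rule without replicate 2. Summed without the 4 listed genes that belong to the 134, the other 8 genes of the seed storage and oil body list were at 52.2 and 58.7 RPKM in cry1 cry2-BL, 96.7 and 98.1 RPKM in tir1 afb123-D, 17.5 and 14.5 RPKM in WT-BL and 75.9 and 83.8 RPKM in WT-D. What part remains of seed RNA may have in these values was not tested.

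4 light-harvesting genes, whose proteins bind chlorophyll around the photosystems, were among the highest of the 134. LHCA4 (AT3G47470) of photosystem I had 1172 and 1315 RPKM in cry1 cry2-BL, 1132 and 1116 RPKM in tir1 afb123-D, 338 and 329.9 RPKM in WT-BL and 237 and 249 RPKM in WT-D. LHCB3 (AT5G54270) of photosystem II had 539 and 621 RPKM in cry1 cry2-BL, 1185 and 1184 RPKM in tir1 afb123-D, 144 and 132 RPKM in WT-BL and 190.4 and 199 RPKM in WT-D. LHCB2.2 (AT2G05070) had 226 and 273 RPKM in cry1 cry2-BL, 1029 and 1069 RPKM in tir1 afb123-D, 35.7 and 36.6 RPKM in WT-BL and 60.4 and 56.4 RPKM in WT-D. In all 4 genes tir1 afb123-D was above both wild types, and LHCB2.2, LHCB2.1 and LHCB3 were highest in it. That cry1 cry2-BL was above both wild types follows from the choice of genes. LHCB2.1 (AT2G05100), which lies beside LHCB2.2 and shares 94.4% of the aligned transcript with it, averaged 275 ± 37.4 RPKM in cry1 cry2-BL, 1071 ± 9.40 RPKM in tir1 afb123-D, 50.7 ± 0.474 RPKM in WT-BL and 82.4 ± 0.590 RPKM in WT-D (SD, n = 2 each), and reads may have moved between the pair. In tir1 afb123-D all 4 were higher than in WT-D, by between 2.204 ± 0.07 for LHCA4 (limma adjusted p = 1.34e-10) and 4.14 ± 0.08 for LHCB2.2 (limma adjusted p = 9.27e-12). In WT-BL LHCB2.1, LHCB2.2 and LHCB3 were lower than in WT-D, and LHCA4 was higher by 0.46 ± 0.07. All 4 met the rule without replicate 2.

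Of 19 light-harvesting genes listed, 4 belonged to the 134, and the median difference of the list in cry1 cry2-BL was -0.17 from WT-BL and 1.00 from WT-D. LHCB1.3, the most abundant of the list, averaged 5408 RPKM in cry1 cry2-BL, 9129 RPKM in tir1 afb123-D, 11589 RPKM in WT-BL and 2757 RPKM in WT-D. All 19 were higher in tir1 afb123-D than in WT-D, and 14 were higher and 5 lower in WT-BL than in WT-D. The green tissue markers, 4 Rubisco small subunits and Rubisco activase, were 5 of 5 higher in tir1 afb123-D and 5 of 5 higher in WT-BL, and in cry1 cry2-BL their sum was below that of WT-D. Their part in the light-harvesting values was not tested.

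8 genes were placed under light signalling and growth. AT3G08660 and AT3G49970 among them are annotated only as phototropic-responsive NPH3 family proteins. PIF4 (AT2G43010) and PIF5 (AT3G59060) are bHLH factors that promote hypocotyl growth and are degraded after phytochromes absorb light. PIF4 had 65.1 and 71.6 RPKM in cry1 cry2-BL, 23.7 and 21.9 RPKM in tir1 afb123-D, 9.68 and 8.73 RPKM in WT-BL and 15.3 and 16.7 RPKM in WT-D. PIF5 had 41.4 and 44.9 RPKM in cry1 cry2-BL, 39.0 and 35.6 RPKM in tir1 afb123-D, 8.11 and 6.48 RPKM in WT-BL and 13.5 and 13.6 RPKM in WT-D. For both the order of groups was cry1 cry2-BL, tir1 afb123-D, WT-D and WT-BL, without overlap. The place of cry1 cry2-BL above the wild types follows from the choice of genes. PIF5 rose in tir1 afb123-D by 1.396 ± 0.09 (limma adjusted p = 5.61e-08) and PIF4 by 0.49 ± 0.08 (limma adjusted p = 0.000114). PRE1 (AT5G39860), a growth-promoting bHLH protein, had 45.2 and 46.6 RPKM in cry1 cry2-BL, 3.21 and 4.00 RPKM in tir1 afb123-D, 4.77 and 4.79 RPKM in WT-BL and 21.1 and 21.8 RPKM in WT-D. PKS4 (AT5G04190), a phytochrome kinase substrate of phototropism, had 24.5 and 26.95 RPKM in cry1 cry2-BL, 3.89 and 4.13 RPKM in tir1 afb123-D, 0.903 and 0.727 RPKM in WT-BL and 11.3 and 10.5 RPKM in WT-D. PRE1 fell by 2.29 ± 0.09 in tir1 afb123-D (limma adjusted p = 5.78e-10) and PKS4 fell by 1.25 ± 0.09 (limma adjusted p = 1.66e-07). Of the 8 genes 6 were higher and 2 lower in tir1 afb123-D, none was higher and 5 were lower in WT-BL, and 7 met the rule without replicate 2. Of 18 listed shade and elongation genes 3, PIF4, PIF5 and PRE1, belonged to the 134, and 16 of the 18 were lower in tir1 afb123-D and all 18 lower in WT-BL than in WT-D.

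4 genes belong to the circadian clock or to its outputs. The pseudo-response regulator PRR9 had 3.79 and 4.33 RPKM in cry1 cry2-BL, 23.7 and 22.4 RPKM in tir1 afb123-D, 1.01 and 1.22 RPKM in WT-BL and 1.28 and 1.66 RPKM in WT-D. LNK1, a coactivator of clock genes, had 16.2 and 18.3 RPKM in cry1 cry2-BL, 35.6 and 28.4 RPKM in tir1 afb123-D, 3.82 and 3.77 RPKM in WT-BL and 7.82 and 8.19 RPKM in WT-D. CDF3, a cycling DOF factor, averaged 27.7 ± 1.95 RPKM in cry1 cry2-BL, 27.7 ± 0.473 RPKM in tir1 afb123-D, 10.3 ± 0.114 RPKM in WT-BL and 10.1 ± 0.0835 RPKM in WT-D (SD, n = 2 each). RVE7, a MYB-like factor, averaged 48.6 ± 3.81 RPKM in cry1 cry2-BL and 23.2 ± 0.0235 RPKM in WT-D (SD, n = 2 each), and AT3G10113 shares 99.8% of an aligned stretch with it, so these 2 are not independent. All 4 rose in tir1 afb123-D, between 0.52 ± 0.07 for RVE7 (limma adjusted p = 4.53e-05) and 3.29 ± 0.11 for PRR9 (limma adjusted p = 2.74e-10). Only 1 of the 4 met the rule without replicate 2. The labels used here give no hour of harvest.

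11 genes were placed under jasmonate responses and defence, some by family name alone. VSP2 (AT5G24770), a storage protein that jasmonate and wounding induce, had 22.3 and 22.5 RPKM in cry1 cry2-BL, 1.24 and 0.729 RPKM in tir1 afb123-D, 2.15 and 2.25 RPKM in WT-BL and 3.44 and 3.07 RPKM in WT-D. Its neighbour VSP1 (AT5G24780) had 17.0 and 16.5 RPKM in cry1 cry2-BL, 1.93 and 2.05 RPKM in tir1 afb123-D, 8.31 and 7.35 RPKM in WT-BL and 6.37 and 5.94 RPKM in WT-D. Both were lower in tir1 afb123-D, where VSP2 fell by 1.11 ± 0.12 (limma adjusted p = 5.55e-06) and VSP1 fell by 1.26 ± 0.09 (limma adjusted p = 1.08e-07). The lectin gene JR1 (AT3G16470), also known as a jasmonate-induced gene, had 509 and 457 RPKM in cry1 cry2-BL, 38.3 and 35.1 RPKM in tir1 afb123-D, 122 and 118 RPKM in WT-BL and 172 and 172 RPKM in WT-D. It fell by 2.197 ± 0.06 in tir1 afb123-D (limma adjusted p = 9.9e-11). BGLU28 (AT2G44460), annotated only as a β-glucosidase, had 5.86 and 6.03 RPKM in cry1 cry2-BL, 29.8 and 24.5 RPKM in tir1 afb123-D, 0.491 and 0.469 RPKM in WT-BL and 0.398 and 0.532 RPKM in WT-D. It rose by 4.26 ± 0.11 in tir1 afb123-D (limma adjusted p = 5e-11). Of the 11 genes 4 were higher and 5 lower in tir1 afb123-D, 4 were higher and 3 lower in WT-BL, and 8 met the rule without replicate 2. The shares over all genes tested were 27.5% higher and 51.4% lower in tir1 afb123-D, and 34% and 40.4% in WT-BL. Of 18 listed jasmonate and wounding genes only VSP1 and VSP2 belonged to the 134, and 14 of 16 tested were higher and 2 lower in tir1 afb123-D than in WT-D.

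14 genes were placed under the cell wall and plant surface. The expansin EXPA16 (AT3G55500), of a family that loosens walls, had 66.6 and 74.2 RPKM in cry1 cry2-BL, 9.80 and 9.71 RPKM in tir1 afb123-D, 13.6 and 15.0 RPKM in WT-BL and 13.1 and 15.1 RPKM in WT-D. The wild types overlapped, and the gene fell by 0.49 ± 0.08 in tir1 afb123-D (limma adjusted p = 0.000206). WSD1 (AT5G37300), which makes wax esters, had 12.3 and 13.1 RPKM in cry1 cry2-BL, 5.19 and 5.28 RPKM in tir1 afb123-D and 1.41 and 1.53 RPKM in WT-D, and was listed at 0 in both WT-BL libraries. LTP3 (AT5G59320), a lipid transfer protein beside LTP4, had 37.9 and 67.6 RPKM in cry1 cry2-BL, 15.8 and 15.97 RPKM in tir1 afb123-D, 9.59 and 12.3 RPKM in WT-BL and 18.0 and 17.9 RPKM in WT-D. Its cry1 cry2-BL libraries lay further apart than its other groups did. AT5G04310, a pectin lyase-like protein, averaged 9.70 ± 0.498 RPKM in cry1 cry2-BL, 1.64 ± 0.0438 RPKM in tir1 afb123-D, 2.71 ± 0.450 RPKM in WT-BL and 4.33 ± 0.0450 RPKM in WT-D (SD, n = 2 each). Of the 14 genes 7 were higher and 6 lower in tir1 afb123-D, 2 were higher and 9 lower in WT-BL, and 13 met the rule without replicate 2. All genes tested gave shares of 27.5% higher and 51.4% lower in tir1 afb123-D, and of 34% and 40.4% in WT-BL.

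63 genes had no place in these roles, and among the 62 tested 25 were higher and 21 lower in tir1 afb123-D, beside 27.5% and 51.4% of all genes tested. 49 of the 63 met the rule without replicate 2. The 5 largest rises there, among genes of the 134 with at least 5 RPKM in the higher group, were those of AT1G80130, CRC, BGLU28, LHCB2.2 and LHCB2.1. The largest was that of AT1G80130, a tetratricopeptide repeat protein. It had 21.7 and 28.5 RPKM in cry1 cry2-BL, 231 and 229 RPKM in tir1 afb123-D, 0.443 and 0.105 RPKM in WT-BL and 6.44 and 5.07 RPKM in WT-D, a rise of 5.10 ± 0.15 (limma adjusted p = 8.74e-11). The deepest falls were those of AT1G72140, AT5G38020, PRE1, MLP43 and JR1. AT1G72140, a transporter of the major facilitator superfamily, had 43.2 and 36.3 RPKM in cry1 cry2-BL, 1.01 and 0.650 RPKM in tir1 afb123-D, 6.55 and 6.16 RPKM in WT-BL and 13.6 and 13.1 RPKM in WT-D. It fell by 2.98 ± 0.11 in tir1 afb123-D (limma adjusted p = 5.28e-10). AT5G38020, a methyltransferase family gene, had 51.6 and 42.3 RPKM in cry1 cry2-BL, 0.562 and 0.259 RPKM in tir1 afb123-D, 15.0 and 14.6 RPKM in WT-BL and 7.92 and 7.08 RPKM in WT-D. MLP43 (AT1G70890), a major latex protein-like gene, had 589 and 548 RPKM in cry1 cry2-BL, 50.9 and 51.7 RPKM in tir1 afb123-D, 281 and 263 RPKM in WT-BL and 265 and 243 RPKM in WT-D. Its wild types overlapped, and it fell by 2.28 ± 0.06 in tir1 afb123-D (limma adjusted p = 6.61e-11).

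Between the wild-type states the lowest difference was that of GLYI7 (AT1G80160), a glyoxalase family gene, with 38.7 and 43.6 RPKM in cry1 cry2-BL, 6.28 and 6.09 RPKM in tir1 afb123-D, 0.303 and 0.335 RPKM in WT-BL and 20.4 and 18.0 RPKM in WT-D. The difference of WT-BL from WT-D was -3.94 ± 0.09, and in tir1 afb123-D the gene fell by 1.49 ± 0.09 (limma adjusted p = 2.9e-08). AT5G63350, a von Willebrand factor A domain protein, differed by -2.103 ± 0.13 between WT-BL and WT-D. The highest differences of WT-BL from WT-D after KIN2 were those of AT1G04660, a glycine-rich protein, at 1.92 ± 0.10, and of the glucosyltransferase UGT84A3, at 1.90 ± 0.14. AT1G04660 had 32.2 and 29.5 RPKM in cry1 cry2-BL, 0.140 and 0.146 RPKM in tir1 afb123-D, 7.57 and 6.47 RPKM in WT-BL and 1.21 and 1.04 RPKM in WT-D. UGT84A3 averaged 17.5 ± 1.79 RPKM in cry1 cry2-BL, 0.537 ± 0.138 RPKM in tir1 afb123-D, 7.996 ± 1.514 RPKM in WT-BL and 1.404 ± 0.321 RPKM in WT-D (SD, n = 2 each). The hydrolase family gene AT3G24420 rose by 2.87 ± 0.13 in tir1 afb123-D (limma adjusted p = 2.36e-09), and WT-BL was 1.55 ± 0.13 above WT-D. Among abundant genes outside the roles, DHAR1, which recycles ascorbate, averaged 284 ± 3.29 RPKM in cry1 cry2-BL, 173 ± 2.52 RPKM in tir1 afb123-D, 136 ± 2.41 RPKM in WT-BL and 122 ± 2.21 RPKM in WT-D (SD, n = 2 each). The annexin ANNAT1 averaged 383 ± 1.94 RPKM in cry1 cry2-BL, 328 ± 7.58 RPKM in tir1 afb123-D, 174 ± 3.43 RPKM in WT-BL and 187 ± 0.411 RPKM in WT-D (SD, n = 2 each).

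Some of the 134 genes lie next to each other. 20 of them fall in 12 runs of genes at most 3 measured models apart, counted together with the 10 genes left out. LHCB2.2 and LHCB2.1, VSP2 and VSP1, and SESA1 and SESA2 are pairs of related neighbours, and RD29A lies beside LTI65, KIN2 beside KIN1, LTP3 beside LTP4 and TSA1 beside BGLU18, in each case a gene left out. Members of such pairs are not independent. 23 of the 134 overlap another annotated gene, 21 of them a protein-coding one, and whether reads were counted by strand is not given in the sources used here.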

How the data were processed

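RNA of 8 whole-seedling libraries, 2 in each of 4 groups, was selected for poly(A) and sequenced, per the labels' protocols. Bowtie2 2.2.2 placed the reads on TAIR10, per the submitters' processing notes, and the authors deposited 1 RPKM value per gene model for 27416 models, per the file headers; the counter, its use of strand and the annotation release are not given in the sources used here. Totals per library were recovered from the steps between RPKM values, whole to within 0.05 reads. Group means with 1 RPKM added chose the 134 genes. limma 3.58.1 in R 4.3.3 (eBayes with a mean-variance trend) was fitted to log2(RPKM + 1) of all 8 libraries in 4 groups, over the 20044 genes that reached 1 RPKM in 2 or more of the libraries (4 residual and 6.96 prior degrees of freedom), with Benjamini-Hochberg adjustment over all of them. The fit was also run on simulated reads with the same spread setting for all genes. That run does not check the p-values for these libraries. A fold change on this scale understates the change of low genes. At 2 libraries per group and 19.3 to 23.1 times 1e6 reads, the 134 genes had a median of 1807 reads over the 8 libraries, and the lowest had 13 reads in the cry1 cry2-BL libraries together. Promoters were read from the RefSeq TAIR10.1 genome, and similar transcripts were found with BLAST 2.17.0.

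The members and gene lists were chosen with earlier results of these data known. Genes named were the 20 with the largest smaller-of-the-pair difference and at least 5 RPKM in cry1 cry2-BL, the 10 highest, those in a gene list, the 5 largest rises and 5 largest falls of each test with at least 5 RPKM in the higher group, and the 3 on each side of the threshold; others were named after their values were seen. Alternatives were other pseudocounts, fold minima, filters and scaling, a fit of 2 groups, no trend, a replicate block and leaving out each library.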

Additional observations from a re-analysis of the deposited data

How the results depend on the processing

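The number of members depends on the rule's own numbers: 134 became 343 with a pseudocount of 0.1, 175 with 0.5, 430 with a 1.5-fold minimum, 17 with a 4-fold minimum and 112 with upper-quartile scaling. Leaving out 1 library of the rule gave 112 to 157 genes, both ends set by the cry1 cry2-BL libraries. With the 134 genes fixed, leaving out 1 library gave 67 to 71 higher and 34 to 37 lower in tir1 afb123-D, and 25 to 28 higher and 49 to 56 lower in WT-BL, where no left-out library reached the 30 higher of all 8. Genes chosen without cry1 cry2-BL replicate 1, an alternative added after seeing the data, gave 85 higher and 37 lower in tir1 afb123-D, and 35 higher and 61 lower in WT-BL. Upper-quartile scaling moved the median of all genes in tir1 afb123-D against WT-D to -0.09, against -0.24 as reported, and gave 75 higher and 33 lower of the 133; no called gene of the 134 changed sign under it. Counts under the other filters, pseudocounts and fits stayed within 1.5 times those reported. Of single genes named, 22 results lost and 26 gained a call over all alternatives, and none that had passed changed direction.

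Whether same-numbered libraries were grown or prepared together is not known from the labels. The replicate 1 minus replicate 2 differences of all genes tested, on log2(RPKM + 1), were correlated between groups. The lowest value was -0.115, between tir1 afb123-D and WT-D, and the highest was 0.137, between WT-BL and WT-D. Such values do not decide whether the replicate numbers pair the samples. With the replicate number as a block, 71 were higher and 36 lower in tir1 afb123-D, and 31 higher and 54 lower in WT-BL; with the tir1 afb123-D numbers crossed, an alternative added after seeing the data, the counts were 71 and 36, and 31 and 55. 2 libraries per group limit every test, and genes under 5 RPKM rest on few reads.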
